A study of Mus musculus with 10 samples.

Results

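Mediator is the large protein complex that links transcription factors bound at enhancers to RNA polymerase II at promoters. Its 33 genes listed here, the Med subunits with Med12l and Med13l and the kinase partners Cdk8, Cdk19 and Ccnc, were taken by name from a table of 24448 mouse genes. Where a gene had several transcript rows, the row with the highest mean over all libraries stood for it. All 33 were in the table, and 32 reached 1 RPKM (reads on a transcript, scaled to its length in kilobases and to the mapped reads of the library) in at least 2 of the 10 libraries and were tested. Med12l did not, and Cdk19 did so only through ESC libraries.

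The cells were of 1 mouse line of embryonic stem cells (ESCs), V6.5, which grew on irradiated mouse embryonic fibroblasts with leukemia inhibiting factor, and cells derived from them that the labels call NPCs (neural progenitor cells). NPCs were made by forming embryoid bodies for 4 days and plating the dissociated cells as a monolayer in ITSF medium, received siRNA on day 5 and gave RNA on day 8, per the labels' protocols. The 5 groups were ESCs with control siRNA against luciferase, ESCs with Cbx3 siRNA, NPCs with the same control siRNA, NPCs with Cbx3 siRNA and NPCs with Med26 siRNA. No genotype change, drug or sorting step is named for any group. Each group had 2 libraries that the labels number 1 and 2 and call biological replicates. Nothing in the labels says whether they came from separate cultures, so a p-value here reflects the spread among these libraries alone, which may be technical.

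In the complex, a head and a middle module contact the polymerase, a tail module receives most transcription factors, and Med14 runs through all of them as a backbone. A separate kinase module, made of Cdk8 or Cdk19, their cyclin Ccnc, Med12 or Med12l and Med13 or Med13l, binds the core reversibly and hinders its contact with the polymerase. Med26 joins the middle module in the form of Mediator that lacks the kinase module, and its N-terminal domain binds Taf7 of the initiation factor TFIID and elongation complexes that hold Ell, Eaf and Aff proteins. Accounts differ on whether Med27 to Med30 belong to the head or the tail, and they are counted here with the tail. Cbx3, the target of the other siRNA, encodes HP1 gamma, a chromatin protein that binds methylated histone H3 and is also found over transcribed genes.

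Each library rested on an estimated 23300000 to 63900000 reads, read from the steps between low values. At the transcript lengths of the GENCODE M21 annotation, the thinnest member values stood on about 101 reads for Med12l, 109 for Cdk19 and 149 for Med29. The labels were checked against the targeted and marker genes. Cbx3 stood at 14.0 and 56.4 RPKM in ESC control and 1.01 and 1.96 RPKM in ESC Cbx3 siRNA, and in NPCs at 9.37 and 9.65 RPKM in control, 0.425 and 0.248 RPKM with its siRNA and 7.87 and 7.93 RPKM with Med26 siRNA. It was thus lower in all 4 libraries labelled Cbx3 siRNA than in the other 6. The summed level of 12 pluripotency genes was 1264 to 1824 RPKM in ESC control and 988 to 1008 RPKM in NPC control. Pou5f1, a defining ESC gene, stood at 536 and 308 RPKM in ESC control and 484 and 497 RPKM in NPC control. It alone of the 12 had a positive log2 change (0.27, adjusted p = 0.552 by limma). Esrrb went from 53.4 and 13.7 RPKM to 1.18 and 0.913 RPKM, and Sox2 from 131.3 and 72.1 RPKM to 29.6 and 29.9 RPKM. The sum of 12 neural progenitor genes was 21.4 to 31.1 RPKM in ESC control and 56.9 to 61.0 RPKM in NPC control, where Sox1 stood at 9.22 and 8.29 RPKM and Pax6 at 3.39 and 3.42 RPKM. Fibroblast feeder genes (12 genes) summed to 52.6 to 83.9 RPKM in ESC control and 11.97 to 13.8 RPKM in NPC control. Muscle and mesoderm genes (8 genes) summed to 35.3 to 65.8 RPKM in ESC control and 150.8 to 154.0 RPKM in NPC control. In both control groups their sum exceeded that of the 12 neural progenitor genes. Of the muscle and mesoderm genes that passed, Actc1 (log2 change 3.18, adjusted p = 0.00592 by limma) and Cnn1 (3.04, adjusted p = 0.0162) changed most. Acta1, at 1.54 and 18.2 RPKM in ESC control and 59.8 and 59.0 RPKM in NPC control, did not pass (3.11, adjusted p = 0.113). Acta2 was lower (-0.69, adjusted p = 0.0247). In bulk RNA, fewer cells of a type and less RNA per cell cannot be told apart. ESC replicates lay farther apart than NPC replicates, with a median absolute log2 difference over all tested genes of 0.27 against 0.10 in the control groups.

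Mediator RNA was of middling abundance, and its total stayed within a narrow range. The 33 genes summed to between 432.0 and 446.5 RPKM in the 4 ESC libraries and between 451.6 and 472.5 RPKM in the 6 NPC libraries. The median member had a mean of 10.8 RPKM over the libraries, against 7.51 RPKM for the median tested gene, and 24 members lay above that median. The most abundant were Med30 (mean 30.7 RPKM), a subunit found in animals, and the middle subunits Med10 (30.1 RPKM) and Med21 (29.3 RPKM), followed by the head subunits Med6 (28.8 RPKM) and Med8 (26.9 RPKM). The least abundant were Med12l (0.581 RPKM) and Cdk19 (0.783 RPKM). Of the subunits outside the kinase module, Med15 (3.54 RPKM) and Med29 (4.12 RPKM), both counted with the tail, were lowest. These levels are per length of transcript. For Med10, exons of Gm26819 on the other strand cover 92.8% of its exon bases in GENCODE M21, so its level and rank may hold reads of both if counting did not use strand, which the sources used here do not say.

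**Figure D1:**
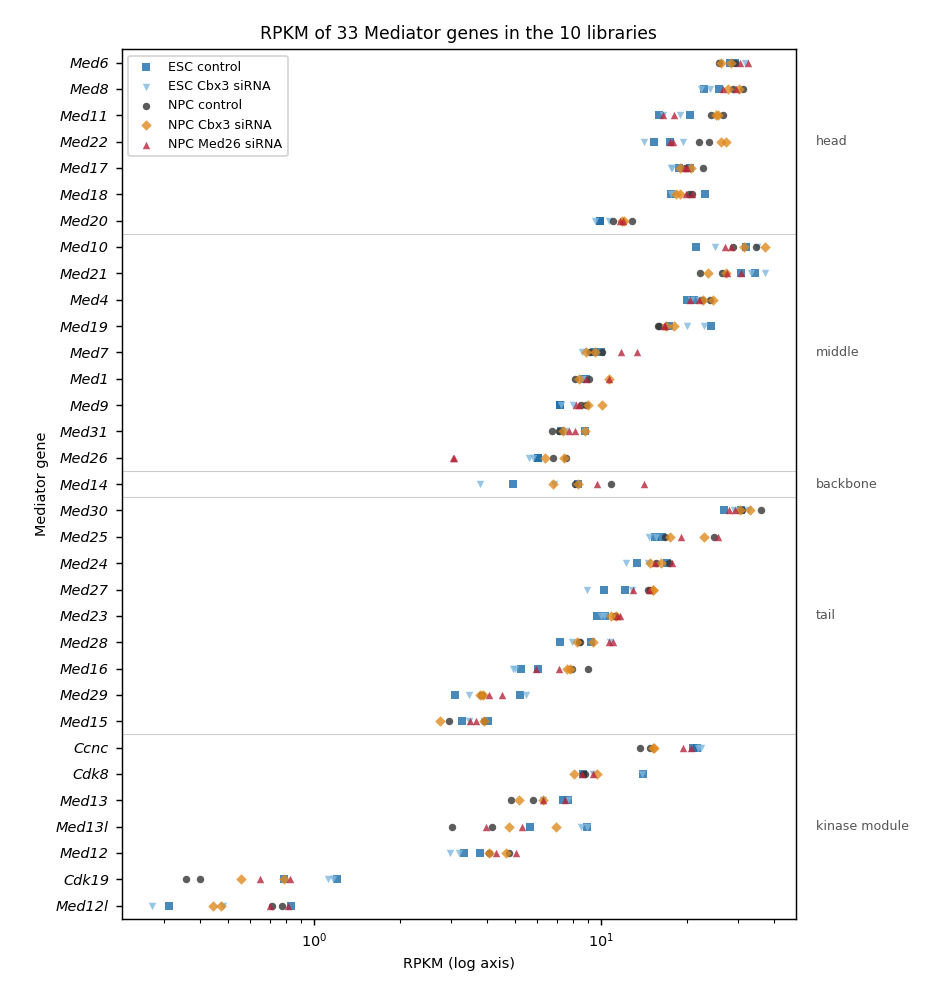
RPKM of the 33 Mediator genes on a log axis, 1 row per gene by module and 1 symbol per library, coloured by group. In 28 genes the highest library was under 2 times the lowest, and the other 5 were Med14, Med13l, Cdk19, Med12l and Med26.

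The highest library was under 2 times the lowest for 28 of the 33 members. Med26, the target of one siRNA, spanned 2.48 times. The widest ranges were those of Med14 (3.72 times), Cdk19 (3.34 times), Med12l (3.03 times) and Med13l (2.97 times). Med14, the backbone subunit, was 4.95 and 8.32 RPKM in ESC control, 3.79 and 6.84 RPKM in ESC Cbx3 siRNA, 10.8 and 8.09 RPKM in NPC control, 8.29 and 6.79 RPKM in NPC Cbx3 siRNA and 14.1 and 9.72 RPKM in NPC Med26 siRNA. Its replicates lay apart in every group, and replicate 1 was the lower in both ESC groups and the higher in all 3 NPC groups. Med25, the tail subunit that binds the herpes simplex activator VP16, stood at 24.7 and 16.7 RPKM with control siRNA against 25.5 and 19.0 RPKM with Med26 siRNA in NPCs. Replicate 1 was the higher in all 3 NPC groups for 11 tested members (median transcript length 3410 bases) and replicate 2 for 7 members (median 1254 bases). In both ESC groups replicate 1 was the higher for 14 members (median 1797.5 bases) and replicate 2 for 13 (median 2547 bases). The order of the lengths was thus reversed in ESCs. Among the steadiest members was the tail subunit Med23, between 9.68 and 11.6 RPKM in all libraries.

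Apart from Ccnc, the kinase module genes listed here are pairs of paralogs. Their RNA levels were unequal for Cdk8 and Cdk19 and for Med12 and Med12l. Cdk8, the kinase, exceeded its paralog Cdk19 by 7.23 to 24.6 times in the 10 libraries. Med12, which activates the kinase, exceeded Med12l by 4.03 to 12.1 times. Med13 and Med13l, which tether the module to the core, were near parity, with Med13 at 0.700 to 1.62 times the level of Med13l. Med12l was 0.312 and 0.828 RPKM in ESC control, 0.273 and 0.483 RPKM in ESC Cbx3 siRNA, 0.771 and 0.711 RPKM in NPC control, 0.444 and 0.473 RPKM in NPC Cbx3 siRNA and 0.810 and 0.704 RPKM in NPC Med26 siRNA. Both NPC Cbx3 siRNA libraries lay below the other 4 NPC libraries, and with no filter on low values the change against NPC control was -0.26 (log2 of RPKM + 1, adjusted p = 0.0645 by limma). Exons of Igsf10 on the other strand cover 15.3% of the exon bases of Med12l in GENCODE M21, where the same limit holds.

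**Figure D2:**
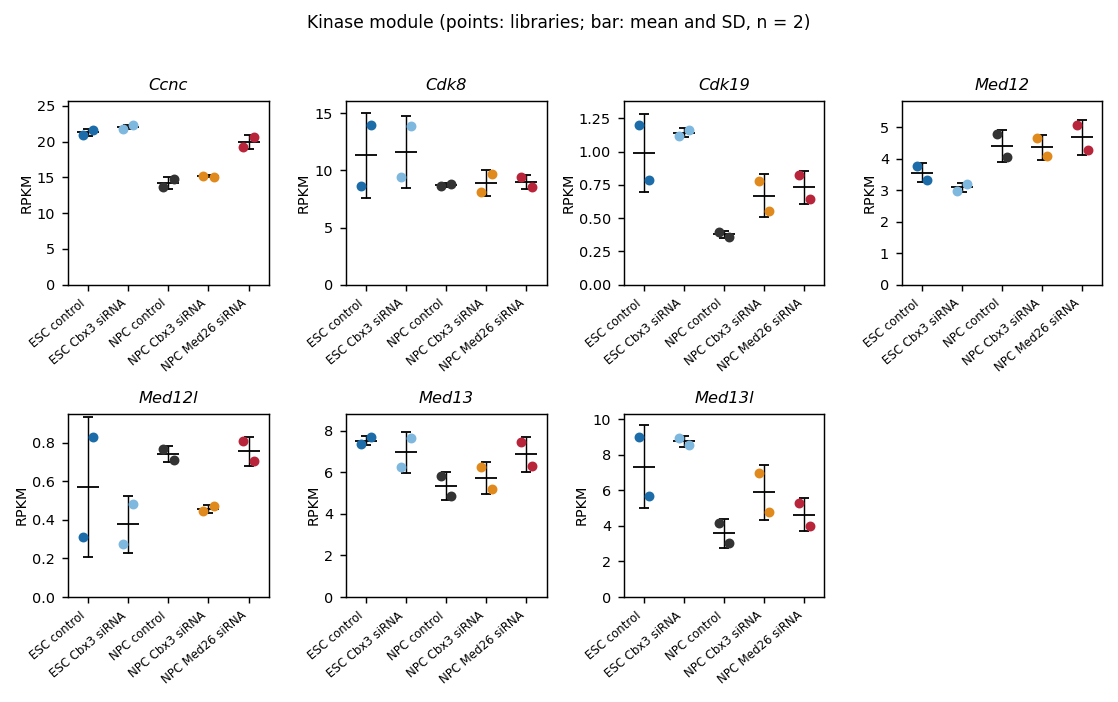
RPKM of the 7 kinase module genes by group, with 1 point per library and the mean and SD of n = 2 as a bar, on axes that start at 0. Ccnc and Cdk19 are lower in the NPC control libraries than in either ESC group, and Ccnc lies just under its ESC level in the Med26 siRNA libraries.

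The first comparison set NPC control against ESC control. Ccnc, the cyclin that Cdk8 and Cdk19 need, was lower in NPCs. Med16, a tail subunit, was higher. In ESC control Ccnc stood at 20.97 and 21.7 RPKM, in NPC control at 13.7 and 14.8 RPKM. The groups did not overlap, and the change was -0.55 on the scale of log2(RPKM + 1), with a standard error (SE) of 0.09 and an adjusted p = 0.00771 (limma, in the fit of all 10 libraries). Cdk19 stood at 1.20 and 0.784 RPKM in ESC control against 0.399 and 0.358 RPKM in NPC control. On the RPKM scale the Cdk19 mean in NPC control was 0.382 times that in ESC control. Cdk19 entered the fit only through ESC libraries and so had to lie lower in NPCs. Its values are a description, and its passing (adjusted p = 0.0496, and 0.0456 by limma with no filter on low values) is not counted as a result. Med16 stood at 5.27 and 6.01 RPKM in ESC control against 9.03 and 7.91 RPKM in NPC control, or 0.51 (SE 0.12, adjusted p = 0.0275).

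Of the 32 tested members, 1 was higher in NPC control (3.13%, against 10.1% of all genes tested), and with Cdk19 set aside 1 was lower (against 5.91% of all genes). The median log2 change was 0.12 over the other 31 members and 0.03 over all 11922 genes tested. Without Cdk19, 1 of 5 kinase module genes had a positive change (median -0.43), against 53.5% of all genes. The change was positive for 6 of 7 head genes (median 0.24), 7 of 9 tail genes (0.15) and 4 of 9 middle genes (-0.01). A difference between modules was not tested. The head genes Med11 (0.47, adjusted p = 0.0530), Med22 (0.46, adjusted p = 0.0662) and Med8 (0.30, adjusted p = 0.0944) did not pass. Neither did Med13l (-0.84, adjusted p = 0.0543), Med13 (-0.43, adjusted p = 0.0805), Cdk8 (-0.31, adjusted p = 0.392) or Med12 (0.25, adjusted p = 0.211), nor the middle subunit Med21 (-0.42, adjusted p = 0.0672). The Med13l libraries stood at 8.96 and 5.67 RPKM in ESC control against 4.15 and 3.01 RPKM in NPC control, with a wide gap between the ESC replicates. The summed kinase module was 51.2 to 53.9 RPKM in ESC control and 36.7 to 38.2 RPKM in NPC control, and the summed head 130.4 to 144.1 RPKM in the former and 154.4 to 164.2 RPKM in the latter. The summed tail was 98.8 to 106.3 RPKM in ESC control and 117.6 to 123.7 RPKM in NPC control. These sums carry no test.

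**Figure D3:**
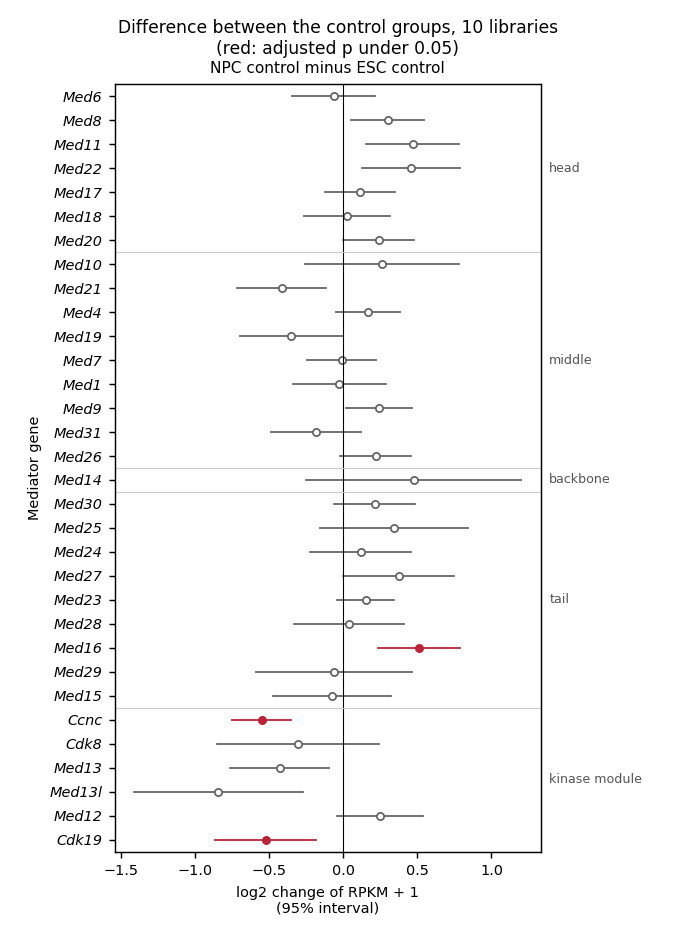
log2 change of RPKM + 1 between NPC control and ESC control for the 32 tested members (points) with 95% intervals (lines), in the fit of all 10 libraries, by module. Red marks the 3 genes past the threshold, Med16 to the right and Ccnc and Cdk19 to the left, of which Cdk19 entered the fit only through ESC libraries and had to lie left of 0.

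Without either NPC control library no member passed, and Ccnc was then at adjusted p = 0.0785 or 0.0543. Med16 also missed the threshold without ESC control replicate 1 (adjusted p = 0.0866) and without either NPC Cbx3 siRNA library (0.0590 and 0.0589). Without ESC control replicate 2 or either ESC Cbx3 siRNA library, 5 members passed, Cdk19 among them. Beside these changes, 4 of 9 tested feeder genes were lower in NPC control and none was higher, and 8 of 12 pluripotency genes were lower. Of 6 tested neural progenitor genes 3 were higher and none lower, and of 6 tested muscle and mesoderm genes 3 were higher and 1 lower. In these counts, Col3a1 and Klf4 (lower) reached 1 RPKM only in ESC libraries, and T (higher) only in NPC libraries. As for Cdk19, their direction followed from the filter and is a description only. The part of any of these lists in the Mediator values was not tested.

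NPCs that received Med26 siRNA were then set against NPC control. Med26 itself stood at 7.56 and 6.78 RPKM in NPC control, 7.42 and 6.35 RPKM in NPC Cbx3 siRNA and 3.04 and 3.07 RPKM in NPC Med26 siRNA, against 6.02 and 6.01 RPKM in ESC control and 5.61 and 5.78 RPKM in ESC Cbx3 siRNA. Both Med26 siRNA libraries lay below the other 8, at 42.6% of the NPC control mean (log2 change -1.01, SE 0.10, adjusted p = 0.00400 by limma in the fit of the 6 NPC libraries). It passed as well without any 1 of these 6 libraries (adjusted p from 0.00712 to 0.0420).

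Beside the target, 5 Mediator genes passed after Med26 siRNA. The head subunits Med11 and Med22 fell, and the middle subunit Med7, the tail subunit Med28 and the cyclin Ccnc rose. Med11, a small head subunit that pairs with Med22, fell from 26.5 and 24.1 RPKM to 16.4 and 17.9 RPKM (log2 change -0.53, SE 0.07, adjusted p = 0.00909). Med22 fell from 22.0 and 23.7 RPKM to 17.4 and 17.8 RPKM (-0.36, SE 0.06, adjusted p = 0.0178). In both genes the groups did not overlap, and the values after Med26 siRNA came within the range of the ESC libraries, which was 15.9 to 20.4 RPKM for Med11 and 14.2 to 19.3 RPKM for Med22.

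Ccnc rose from 13.7 and 14.8 RPKM to 19.3 and 20.6 RPKM (log2 change 0.46, SE 0.07, adjusted p = 0.0126). Both values stood between NPC control and the lowest ESC library, at 20.97 RPKM. Med7, which forms a hinge with Med21 in the middle module, rose from 9.19 and 10.1 RPKM to 13.3 and 11.8 RPKM (0.35, SE 0.09, adjusted p = 0.0486). Med28 rose from 8.36 and 8.47 RPKM to 10.6 and 11.0 RPKM (0.33, SE 0.08, adjusted p = 0.0431). For Med7 both libraries lay above all other 8, and for Med28 the ESC Cbx3 siRNA library of replicate 1 reached 10.7 RPKM.

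**Figure D4:**
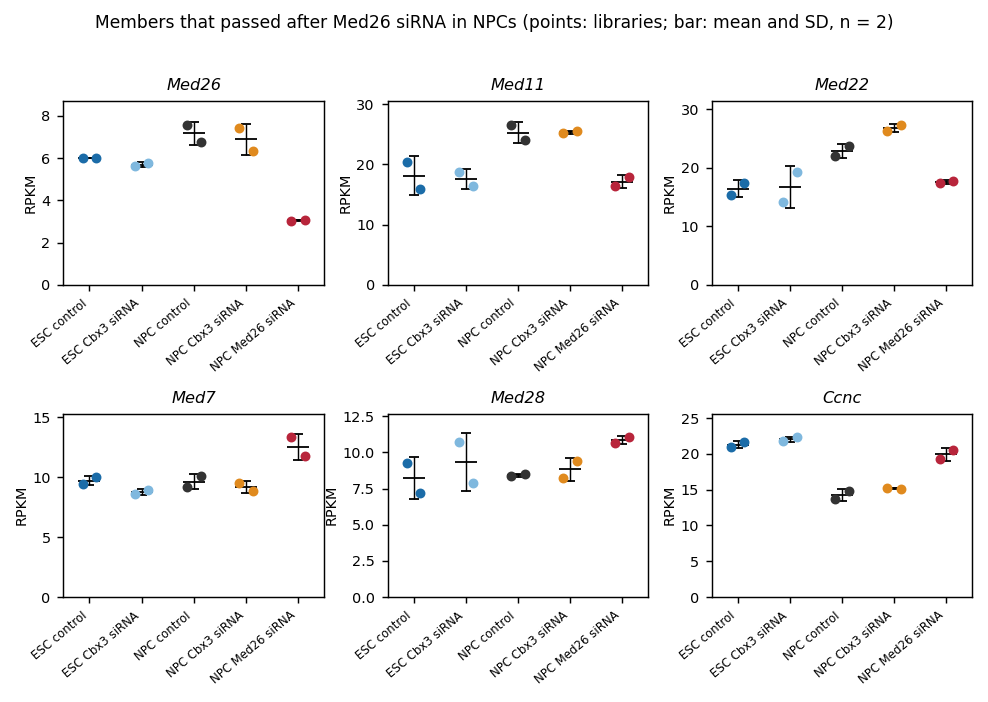
RPKM of the 6 members that passed after Med26 siRNA in NPCs, in all 5 groups, with 1 point per library and the mean and SD of n = 2 as a bar. Med26 is at 3.04 and 3.07 RPKM after its siRNA, Med11 and Med22 lie below NPC control, and Med7, Med28 and Ccnc lie above it.

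These shares were near those of all genes. Of 32 tested members, 3 rose (9.38%, against 6.91% of all genes tested) and 3 fell, the target included (9.38%, against 6.47%). The median log2 change was 0.04 over the members and -0.0015 over all genes tested. All 6 tested kinase module genes had a positive change (median 0.31), against 49.5% of all genes, and only Ccnc passed. Cdk19 was 0.821 and 0.646 RPKM against 0.399 and 0.358 RPKM in control (0.33, adjusted p = 0.0665), Med13 was 7.46 and 6.28 against 5.80 and 4.87 RPKM (0.31, adjusted p = 0.152), Med13l changed by 0.30 (adjusted p = 0.366), Med12 by 0.07 (adjusted p = 0.727) and Cdk8 by 0.04 (95% interval -0.20 to 0.27, adjusted p = 0.834). Med16, higher in NPC than in ESC control, stood at 7.16 and 5.94 RPKM with Med26 siRNA, below both control values (-0.33, adjusted p = 0.0865). The other 20 tested members lay between -0.22 (Med30) and 0.30 (Med14) and did not pass.

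With 2 libraries a group these calls were easily lost. In the fit of all 10 libraries, which called 0.126% of all genes after Med26 siRNA, only Med26 passed among the members, with Ccnc at adjusted p = 0.128, Med11 at 0.215, Med7 at 0.242, Med22 at 0.386 and Med28 at 0.503. In the 6 NPC libraries, the count of 6 members fell to 1 without NPC control replicate 1 or Med26 siRNA replicate 1, to 3 without NPC control replicate 2 and to 2 without Med26 siRNA replicate 2. Med11 missed the threshold without NPC control replicate 1 (adjusted p = 0.0570) or Med26 siRNA replicate 1 (0.0675). Ccnc missed it without NPC control replicate 1 (0.0720) or either Med26 siRNA library (0.0629 and 0.0707), Med22 and Med28 without any 1 of these 4 libraries, and Med7 without any 1 of the 6. Of 12 pluripotency genes 5 rose and 1 fell with this siRNA. The sum of the 12 was nonetheless lower, at 949.0 to 974.1 RPKM against 988 to 1008 RPKM in control. Of 6 tested muscle and mesoderm genes 3 rose and 1 fell, and the sum of all 8 on that list was 267.2 to 267.5 RPKM against 150.8 to 154.0 RPKM in control. Most of that difference was Acta1, at 59.8 and 59.0 RPKM in control and 154.7 and 157.8 RPKM with Med26 siRNA. The gene that fell, T, reached 1 RPKM in no Med26 siRNA or ESC library, so the filter favoured its direction. The part of either list in the Mediator values was not tested.

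Several rows of a gene could be compared. The table gives 55 rows for the 33 genes, and 11 genes have more than 1. The 4 Ccnc transcripts had Med26 siRNA means of 1.40 to 1.55 times the control means, the 4 Med7 transcripts 1.27 to 1.30 times and the 2 Med22 transcripts 0.768 to 0.837 times, so each row moved the way of the one used. Rows of a gene share exons and reads and are no replicates. In GENCODE M21, exons of Tstd3 on the other strand cover 5.396% of the Ccnc exon bases, and Tstd3 itself stood at 4.92 and 5.10 RPKM with control siRNA, 4.77 and 5.28 RPKM with Med26 siRNA. Also on the other strand, 2310031A07Rik covers 21.2% of the Med7 exon bases and Gm17435 12.7% of those of Med26. No exon of another gene overlaps those of Med11, Med22, Med28 or Med16 there.

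Promoter sequence is shown for these 6 genes because they passed in the same comparison, some higher and some lower. Each line gives the 120 bases before the start of the gene in the RefSeq annotation of GRCm38.p6, 5′ to 3′ on the gene's strand, with CCAAT boxes (CCAAT) and TATA boxes (TATAAA) in capitals on either strand; the files use mm9, and no value was read by coordinate. The table of promoters holds 28 of the 33 members, and 2 overlapping windows for Med7, of which the first is shown. The 2 genes that fell beside the target come first, then the target, then the 3 that rose.
Med11, chr11:70451798-70451917, plus strand: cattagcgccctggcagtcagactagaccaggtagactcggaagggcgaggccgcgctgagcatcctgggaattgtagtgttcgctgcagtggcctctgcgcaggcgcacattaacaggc
Med22, chr2:26910643-26910762, minus strand: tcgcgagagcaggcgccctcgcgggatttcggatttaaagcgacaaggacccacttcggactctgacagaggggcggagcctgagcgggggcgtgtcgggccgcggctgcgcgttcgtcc
Med26, chr8:72548311-72548430, minus strand: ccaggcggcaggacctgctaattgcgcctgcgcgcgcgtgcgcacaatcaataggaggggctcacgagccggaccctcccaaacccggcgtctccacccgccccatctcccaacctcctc
Ccnc, chr4:21727581-21727700, plus strand: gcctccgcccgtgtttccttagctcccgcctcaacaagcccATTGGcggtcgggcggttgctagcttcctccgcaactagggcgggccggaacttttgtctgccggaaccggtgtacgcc
Med7, chr11:46436827-46436946, plus strand: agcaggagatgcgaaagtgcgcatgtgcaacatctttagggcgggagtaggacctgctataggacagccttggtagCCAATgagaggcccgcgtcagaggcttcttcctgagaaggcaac
Med28, chr5:45520109-45520228, plus strand: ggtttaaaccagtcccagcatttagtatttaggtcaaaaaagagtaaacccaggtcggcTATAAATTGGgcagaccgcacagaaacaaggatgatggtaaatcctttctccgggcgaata

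In these windows the 3 genes that rose each hold a CCAAT box, which in Med28 shares bases with a TATA box, and Med11, Med22 and Med26 hold neither motif. Over the 250 bases before the start, a CCAAT box was found for 11 of the 28 members and in 33.9% of all 32851 windows of that length, and TATAAA for 3 members and in 12.4% of windows. The ETS motif CCGGAAG was found for 6 members, none of these 6 genes, and in 6.91% of windows. G and C made up 43.3% of the printed bases of Med28 and 68.3% of those of Med22 and Med26. The motifs were searched after the values were known, and a match is a description of letters only.

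Cbx3 siRNA in NPCs called none of the 32 tested Mediator genes in the fit without a replicate block. A fit with such a block, given with the alternatives at the end, did call some. In that comparison 7.81% of all genes tested were higher and 5.33% lower, and 4 members had an unadjusted p under 0.05 (12.5%, against 30.3% of all genes tested). The median log2 change of the members was 0.01, the same as over all genes tested at this rounding. The 3 largest differences were those of Med13l, Med14 and Cdk19. Med13l stood at 4.15 and 3.01 RPKM with control siRNA against 6.99 and 4.79 RPKM with Cbx3 siRNA (log2 change 0.58, SE 0.20, adjusted p = 0.112 by limma in the 6 NPC libraries). Both values lay above both control values. The Cdk19 values with Cbx3 siRNA, 0.783 and 0.555 RPKM, also lay above both control values (0.27, adjusted p = 0.109). Med14 differed by -0.28 (adjusted p = 0.392).

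The head subunit Med22 stood at 26.2 and 27.2 RPKM with Cbx3 siRNA, above its 22.0 and 23.7 RPKM in control (0.22, adjusted p = 0.0672). Med18, a head subunit that pairs with Med20, differed by -0.14 (adjusted p = 0.161). For several members the interval left little room. The log2 change of Med11 lay between -0.17 and 0.18, that of Med23 between -0.17 and 0.13, that of Ccnc between -0.08 and 0.25 and that of Med26 between -0.28 and 0.18 (95% intervals). Cdk8 (0.02), Med12 (-0.01) and Med13 (0.08) did not pass. The fit of all 10 libraries, which called 0.00839% of all genes here, called no member either.

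**Figure D5:**
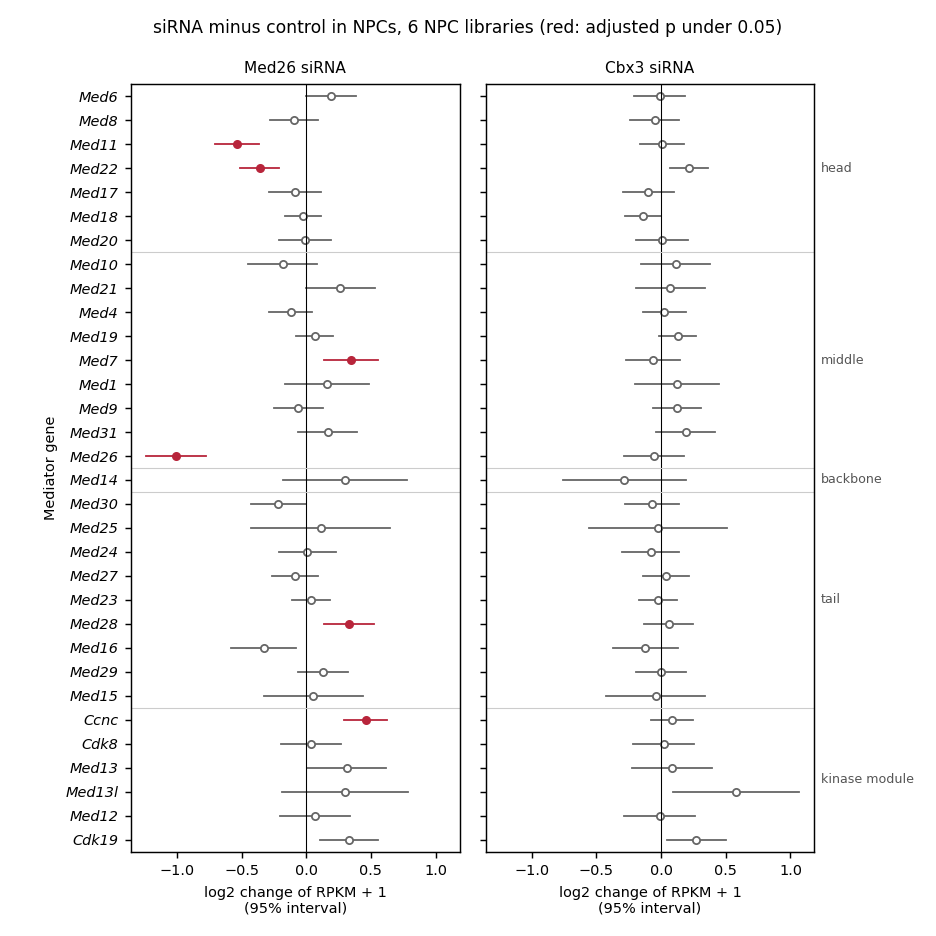
log2 change of RPKM + 1 against NPC control for the 32 tested members after Med26 siRNA (left) and Cbx3 siRNA (right), with 95% intervals, in the fit of the 6 NPC libraries. Red marks the 6 members past the threshold on the left, from Med26 at -1.01 to Ccnc at 0.46, and no member is red on the right, where both panels share the control libraries.

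The 2 siRNAs share their control libraries, so they were also compared directly. Med26 (log2 difference 0.96, adjusted p = 0.00310), Med22 (0.58, SE 0.06, adjusted p = 0.00373) and Med11 (0.54, SE 0.07, adjusted p = 0.00643) were higher after Cbx3 than after Med26 siRNA. Med7 (-0.41, adjusted p = 0.0252) and Ccnc (-0.37, adjusted p = 0.0158) were lower. Ccnc stood at 15.2 and 15.1 RPKM with Cbx3 siRNA against 19.3 and 20.6 RPKM with Med26 siRNA. That is 3 of 32 members higher (9.38%, against 10.4% of all genes tested) and 2 lower (6.25%, against 7.87%). Of 6 tested neural progenitor genes 3 were lower after Cbx3 than after Med26 siRNA (sums of 47.0 RPKM against 64.7 to 65.5 RPKM), of 12 pluripotency genes 6 were lower and 2 higher (892 to 895 against 949.0 to 974.1 RPKM), of 9 tested feeder genes 4 were higher (17.1 to 17.7 against 11.4 to 11.5 RPKM), and of 6 tested muscle and mesoderm genes 2 were higher and 3 lower. Among the genes counted as higher, Col6a2 reached 1 RPKM only in Cbx3 siRNA libraries, and T in no Med26 siRNA or ESC library. The filter thus favoured the direction of both, which is a description only. The part of these lists in the Mediator values was not tested. Without any 1 of the 4 siRNA libraries only Med26, Med22 and Med11 passed, with Med7 at adjusted p = 0.0505 to 0.137 and Ccnc at 0.0626 to 0.0875. In the fit of all 10 libraries, which called 1.01% of all genes, Med26 alone passed (adjusted p = 0.0134). Cdk19 (-0.06, 95% interval -0.28 to 0.17), Cdk8 (-0.02), Med12 (-0.08), Med13 (-0.23) and Med13l (0.28) did not pass, and neither did Med28 (-0.27, adjusted p = 0.0617).

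In ESCs, Cbx3 siRNA called no Mediator gene and no gene at all (0% of those tested) in the fit of all 10 libraries. Cbx3 itself, lower in both siRNA libraries than in both ESC control libraries, was not called either. The lack of calls therefore does not show a lack of response. None of the 32 members had an unadjusted p under 0.05, against 645 of the 11922 genes. The largest differences were those of Med14 (-0.28, 95% interval -1.01 to 0.45), Med13l (0.26, -0.31 to 0.82) and Med18 (-0.17, -0.46 to 0.12), with an adjusted p of 0.9998 for each by limma. Med18 stood at 23.0 and 17.6 RPKM with control siRNA against 17.9 and 17.6 RPKM with Cbx3 siRNA, so only control replicate 1 lay apart. The middle subunit Med10 stood at 21.4 and 32.0 RPKM against 24.9 and 35.0 RPKM, and Cdk8 at 8.66 and 13.9 RPKM against 9.38 and 13.9 RPKM (0.05). In both genes replicate 2 was the higher in each group, by more than the groups differed. Ccnc, at 20.97 and 21.7 RPKM against 21.8 and 22.3 RPKM, had an interval of -0.15 to 0.25. Cdk19 (0.11), Med12 (-0.15) and Med13 (-0.10) did not pass.

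The difference between the Cbx3 siRNA responses of NPCs and ESCs, tested as an interaction, called no member and no gene (0% of those tested), and no member had an unadjusted p under 0.05 (231 of all genes did). The largest differences were those of Med13l (0.32, 95% interval -0.48 to 1.13), Med22 (0.20, -0.27 to 0.67) and Med13 (0.19, -0.29 to 0.66). Intervals of this width do not show that the cell types respond alike.

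Genes that work with Mediator were read from 4 lists. After Med26 siRNA in NPCs, 2 of 15 tested genes of the Med26 elongation partners rose and none fell, in a comparison where 6.91% of all genes tested rose and 6.47% fell. These were Ccnt1, the cyclin of the elongation kinase P-TEFb (11.3 and 11.5 RPKM to 14.5 and 14.1 RPKM, log2 change 0.30, adjusted p = 0.0253), and Aff4, the scaffold of the super elongation complex (0.30, adjusted p = 0.0457). Of 13 RNA polymerase II subunits, Polr2a, the largest, rose from 7.84 and 7.68 RPKM to 13.3 and 12.5 RPKM (0.67, adjusted p = 0.00438) and Polr2f fell (-0.23, adjusted p = 0.0480). Of 30 general transcription factors 3 rose, led by the TFIIH subunit Gtf2h1 (0.54, adjusted p = 0.00748) and the TFIID subunit Taf12 (0.34, adjusted p = 0.0422), and 1 fell. None of 10 cohesin genes passed, cohesin being the ring complex that works with Mediator at enhancers. The medians of the lists were 0.08, -0.08, 0.04 and 0.05, against -0.0015 over all genes tested.

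After Cbx3 siRNA in NPCs, 1 of the 15 elongation partners rose, Zc3h8 of the little elongation complex (5.65 and 5.56 RPKM to 8.06 and 8.25 RPKM, 0.47, adjusted p = 0.0106), and 1 fell, Ell3 (-0.43, adjusted p = 0.0337). Of the 30 general transcription factors 2 rose and 2 fell (against 7.81% and 5.33% of all genes), with Gtf2h1 (0.55, adjusted p = 0.00605) and Gtf2a2 of TFIIA (0.40, adjusted p = 0.0101) the largest, and no polymerase or cohesin gene passed. Gtf2h1 stood at 24.4 and 26.3 RPKM with control siRNA, 36.5 and 38.6 RPKM after Cbx3 siRNA and 36.2 and 38.6 RPKM after Med26 siRNA. Between the siRNAs, Polr2a was lower (-0.54, adjusted p = 0.00528) and Zc3h8 higher (0.62, adjusted p = 0.00450) after Cbx3 siRNA. In NPC control against ESC control, 3 of the 30 general factors were lower (against 5.91% of all genes), led by Taf13 (8.51 and 12.4 RPKM to 2.84 and 4.38 RPKM, -1.31, adjusted p = 0.0187) and Gtf2a2 (-0.70, adjusted p = 0.00392), none was higher, and among the other lists Ell3 (0.74, adjusted p = 0.0220) and the cohesin loader subunit Mau2 (0.50, adjusted p = 0.0185) were higher and the cohesin release factor Wapl lower (-0.82, adjusted p = 0.0256).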

How the data were processed

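RNA of 10 libraries in 5 groups of 2 was sequenced, and the authors deposited RPKM values per RefSeq transcript for each library. The submitters' processing notes name TopHat2 2.08 and mm9. The sources used here do not state the counting tool, annotation release, strand use or handling of multiply matching reads. Of 35860 rows, 35526 took a gene name from the RefSeq table of GRCm38.p6 and 196, Med6 among them, from GENCODE M21; 138 kept their accession. Depth was read from RPKM times length up to 0.3. Of these products, 64.3% to 69.5% per library fell on whole reads (tolerance 0.1 reads), too few to recover counts, so no count test was run.

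The filter of 1 RPKM in 2 libraries left 11922 genes. Their log2(RPKM + 1) values were fitted with limma (3.58.1, R 4.3.3; intensity trend, no block, two-sided) and adjusted by Benjamini-Hochberg over all of them. A gene "passed", "rose" or "fell" at an adjusted p under 0.05. Comparisons among NPC groups used the 6 NPC libraries (3 residual degrees of freedom), the others all 10 libraries (5). Fold changes on this scale understate those of low genes. The fits were tested on simulated data. Members, gene lists, tests and alternatives were chosen with earlier results of these data known. Named in each comparison were the members that passed, or the 3 largest differences where none did, with Med26, the paralog pairs and at most 2 passing genes per list; other members were named after their values were seen. Alternatives were another pseudocount (0.1), no filter, a mean of at least 3 RPKM, summed rows, equal medians, no trend, a replicate block, other sets of libraries and each library left out.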

Additional observations from a re-analysis of the deposited data

How the results depend on the processing

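No Mediator gene that passed changed direction under any alternative run. With a pseudocount of 0.1, no filter, a mean of at least 3 RPKM, summed rows, no intensity trend or equal library medians, 2 to 3 members passed for NPC against ESC control (5 with equal medians; Cdk19 is counted in each but the mean filter, which drops it), 4 to 6 after Med26 siRNA and 4 to 6 between the siRNAs. With rows summed, Cdk19 passed after Med26 siRNA (log2 change 0.62, adjusted p = 0.0399). The choice of libraries moved the counts more. The 4 control libraries alone called 0 members between the cell types (47 genes in all, against 1911), and the fit of all 10 libraries called 1 member after Med26 siRNA and 1 between the siRNAs (15 and 121 genes, against 1595 and 2180; 1 against 1567 for Cbx3 siRNA in NPCs). Leaving out 1 library gave 0 to 5 members between the cell types, 1 to 5 after Med26 siRNA and 3 to 5 between the siRNAs, with 184 to 2689, 164 to 1147 and 556 to 1669 genes in all. It gave 0 members for Cbx3 siRNA in NPCs (392 to 1059 genes). With no filter, 609 genes passed after Med26 siRNA, 879 after Cbx3 siRNA in NPCs and 1323 between the siRNAs. For Cbx3 siRNA in ESCs and its difference between cell types, 0 members passed under each alternative.

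The labels do not say that a replicate number pairs libraries across groups. Over all tested genes, deviations from the group mean correlated at 0.89 between the ESC groups, at 0.42 to 0.46 between NPC groups and at -0.07 to -0.04 across cell types. Over the 32 tested members these correlations were 0.83, 0.63 to 0.79 and -0.45 to 0.09. The fits without a block leave this shared part in the error. With the replicate block, 21 members passed between the cell types (14 higher and 7 lower), 12 after Med26 siRNA (8 and 4), 12 between the siRNAs (6 and 6), 4 after Cbx3 siRNA in NPCs (3 and 1) and 0 in ESCs. Those 4 included Med13l (adjusted p = 0.00331), Med14 (0.0322) and Cdk19 (0.0359). The block fits a separate replicate term in each cell type. In the comparison of cell types it takes the spread between replicates out of the error, so the 21 support nothing. All the members reported as passing were also called with the block, which is no support for them, since the block called far more genes. Over all genes the block called 6898, 3696, 4232, 3491 and 814. Depth limits Med12l, Cdk19 and Med29 most.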
